A study of Mus musculus with 24 samples.

Results

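The 10 genes described here encode the signalling chains of the T cell receptor, its coreceptors, the kinases that act directly on it and a surface receptor that dampens it. They are Cd3d, Cd3e, Cd3g, Cd247, Cd4, Cd8a, Cd8b1, Lck, Zap70 and Cd5. They were picked by gene symbol from the 51138 genes of the count table by a rule that reads no measured value, although earlier results of these data were known when the rule was written, and each symbol matched a single gene. All 10 had counts in each of the 24 libraries and passed the filter of at least 10 counts over all libraries, which 30564 genes passed. The lowest single value among them was 7 counts, for Cd8b1 in a library of the group with the biomaterial alone. Their levels are read here as a measure of T cell transcripts in the implants and of the balance between CD4 and CD8 transcripts.

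A T cell recognises antigen through a receptor of variable alpha and beta, or gamma and delta, chains that have almost no intracellular part of their own. The CD3 delta, epsilon and gamma chains (Cd3d, Cd3e, Cd3g) and the zeta chain (Cd247) carry the tyrosine motifs that Lck phosphorylates and on which the kinase ZAP-70 then docks. CD4 on helper and regulatory T cells and CD8 on cytotoxic T cells bind the presenting molecules and bring Lck along. CD4 is also made by some macrophages and dendritic cells, the alpha chain of CD8 by some dendritic cells and gamma delta T cells, and Cd247 and Zap70 by natural killer cells, so that these 4 genes are less specific for T cells than the CD3 chains.

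The samples were whole constructs taken from under the dorsal skin 2 weeks after implantation in Foxp3-DTR/eGFP mice of both sexes, 8 to 9 weeks of age, in 6 groups of 4 libraries. All hosts, controls included, carried the diphtheria toxin receptor and eGFP under the Foxp3 locus, so that the toxin can kill cells that express Foxp3, the transcription factor of regulatory T cells (Treg). The group BCP received 40 mg of biphasic calcium phosphate granules alone. BCP+MSC had granules seeded with mesenchymal stem cells (MSC), passage 2 bone marrow cells of wild type C57BL/6J mice. In BCP+MSC+RvE1 the MSC had been primed with 10 nM resolvin E1 (RvE1), a lipid mediator, and in BCP+MSC+Treg they had been cocultured with sorted CD4+CD25+Foxp3+ spleen cells of the reporter strain, activated through CD3 and CD28. The mice of (dep)BCP+MSC received diphtheria toxin at 50 µg/kg into the peritoneum, and those of (dep)BCP+MSC+RvE1inj received the toxin and local daily injections of 1 µM RvE1. No group received the toxin without MSC, and RvE1 reached the implant by priming in one design and by injection in the other. Each mouse carried a pair of constructs of the same type, and the RNA was that of all cells in a construct, seeded and host.

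Total counts ran from 8482701 to 144417743 per library, a 17.0-fold range, and 7 shallow libraries held 18077487 or fewer where the others held at least 38646463. Of the shallow ones, 2 belong to (dep)BCP+MSC+RvE1inj (libraries 3 and 4), 2 to BCP and 1 each to (dep)BCP+MSC (library 1), BCP+MSC+RvE1 and BCP+MSC+Treg. Foxp3 itself was low everywhere, at 4 to 158 counts, and did not separate the toxin groups. It stood at 1.04, 1.19, 0.629 and 0.876 CPM (counts scaled to library size) in BCP+MSC, at 1.69, 0.891, 0.976 and 0.378 CPM in (dep)BCP+MSC and at 0.701, 0.754, 0.298 and 1.07 CPM in (dep)BCP+MSC+RvE1inj. These ranges overlapped, and the log2 fold change of (dep)BCP+MSC against BCP+MSC was 0.04 (SE 0.51, edgeR adjusted p = 0.989). Exons of Foxp3 share 373 bases with Gm36995, 267 with Flicr and 590 with Ccdc22, so its counts are uncertain. The study reports, by flow cytometry, a reduction of Treg in lymph nodes and spleen after the toxin. Those organs are not the constructs, so the Foxp3 counts do not test that depletion. Library 3 of (dep)BCP+MSC+RvE1inj stood apart in the balance of its transcripts: its ratio of Cd3d to Cd3e counts was 5.60 (263 against 47 counts), whereas the other 23 libraries lay between 0.678 and 2.91. Libraries in which Xist exceeded the Y-linked genes numbered 1 of 4 in BCP, 3 in BCP+MSC, 0 in BCP+MSC+RvE1, 1 in BCP+MSC+Treg, 2 in (dep)BCP+MSC and 0 in (dep)BCP+MSC+RvE1inj, so that sex was not balanced over the groups.

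The genes lie in a few clusters of the GRCm38 genome. Cd3g (chr9:44969572-44980431, minus strand) and Cd3d (chr9:44981786-44987339, plus strand) stand head to head, with 1355 bases between their starts, and Cd3e (chr9:44998740-45009627, minus strand) follows 11401 bases beyond the end of Cd3d. Cd8b1 (chr6:71322788-71337494, plus strand) and Cd8a (chr6:71373427-71379173, plus strand) are 35933 bases apart, and Cd4 lies on the same chromosome (chr6:124864692-124888221, minus strand). The other 4 are Cd247 (chr1:165788681-165877277, plus strand), Zap70 (chr1:36761798-36782818, plus strand), Lck (chr4:129548344-129573641, minus strand) and Cd5 (chr19:10718143-10738974, minus strand). The intervals are whole genes, exons and introns included. Cd247 shares 3007 exonic bases with Pou2f1 on the opposite strand and 206 with Gm16565, and the counting named no strand option, so that its counts are uncertain. Cd3e shares 135 exonic bases with Gm48719 and Lck shares 25 with Mir8119.

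The 250 bases upstream of a RefSeq gene start are shown for the CD3 cluster and for both kinases, because the CD3 genes share a locus and Lck and Zap70 are among the 4 genes called below. RefSeq (GRCm38.p6) gave 11 such windows for 8 of the 10 genes, with 2 for Lck and 3 for Zap70, of which the one farthest upstream is shown. The start of Cd3e in RefSeq differs from that of the count table, so that 16 bases of its window lie inside the gene as given above. Capitals mark matches, on either strand, to an E-box (CAGNTG), an ETS motif (GGAAG), a RUNX motif (TGTGGT), the letters AGATAA that zinc finger factors of the Gata family bind, or the letters TATAAA of the core promoter box. Each sequence is written 5′ to 3′ on the strand of the gene, from chr9:44980432-44980681 for Cd3g, chr9:44981536-44981785 for Cd3d, chr9:45009612-45009861 for Cd3e, chr4:129573642-129573891 for Lck and chr1:36761548-36761797 for Zap70.
Cd3g: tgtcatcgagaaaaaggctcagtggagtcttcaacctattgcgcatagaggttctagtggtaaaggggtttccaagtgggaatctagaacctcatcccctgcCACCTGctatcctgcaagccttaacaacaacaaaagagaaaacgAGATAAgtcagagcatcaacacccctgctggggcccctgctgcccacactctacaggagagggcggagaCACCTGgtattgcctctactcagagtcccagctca
Cd3d: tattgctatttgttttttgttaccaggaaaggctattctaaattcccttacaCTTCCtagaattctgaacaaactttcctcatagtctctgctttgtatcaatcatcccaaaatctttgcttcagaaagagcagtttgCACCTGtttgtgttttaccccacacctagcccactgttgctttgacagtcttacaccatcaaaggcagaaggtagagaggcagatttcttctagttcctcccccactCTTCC
Cd3e: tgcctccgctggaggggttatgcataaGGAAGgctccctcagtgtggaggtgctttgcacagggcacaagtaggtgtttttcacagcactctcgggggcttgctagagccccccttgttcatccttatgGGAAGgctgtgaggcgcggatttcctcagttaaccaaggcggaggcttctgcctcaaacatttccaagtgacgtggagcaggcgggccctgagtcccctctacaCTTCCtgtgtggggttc
Lck: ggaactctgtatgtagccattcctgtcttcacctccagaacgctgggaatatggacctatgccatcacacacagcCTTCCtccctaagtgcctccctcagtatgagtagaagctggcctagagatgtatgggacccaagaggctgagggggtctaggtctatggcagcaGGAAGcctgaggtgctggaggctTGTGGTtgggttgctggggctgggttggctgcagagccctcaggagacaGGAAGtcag
Zap70: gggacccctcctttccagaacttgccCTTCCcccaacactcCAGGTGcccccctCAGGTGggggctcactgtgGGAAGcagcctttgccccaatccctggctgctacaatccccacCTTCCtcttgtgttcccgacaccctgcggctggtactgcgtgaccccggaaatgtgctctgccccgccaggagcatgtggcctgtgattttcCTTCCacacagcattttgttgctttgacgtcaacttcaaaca
Over the 11 windows, 9 held the ETS letters, which 64.1% of all 32851 promoter windows of this length held, and 7 held the E-box letters, against 44.8% of all windows. The RUNX letters were in 2 windows (14.0% of all), the Gata letters in 1 (9.99% of all) and the core promoter box in 0 (12.4% of all). A match is a description of the sequence and does not show binding.

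Compared per kilobase of exon, Lck and Cd3d were the most abundant of the 10 transcripts and Cd247 and Cd8a the least. The mean over the 24 libraries was 4.19 CPM per kilobase for Lck (SD 2.45), 4.07 for Cd3d (SD 3.13), 2.89 for Cd4 (SD 1.41) and 2.71 for Cd3g (SD 2.16). Zap70 (2.09), Cd8b1 (2.05) and Cd5 (1.98) followed, and Cd3e (1.05), Cd8a (0.835) and Cd247 (0.754) were lowest on this scale. Each difference between neighbours in this order was smaller than the SD of either gene over the libraries, except that Cd5 exceeded Cd3e by more than the SD of Cd3e (0.726). All 10 genes had their highest group mean in (dep)BCP+MSC+RvE1inj and the next highest in (dep)BCP+MSC. When the 4 highest libraries of each gene were listed, 30 of the 40 places fell to (dep)BCP+MSC+RvE1inj and 10 to (dep)BCP+MSC. In these bulk samples fewer cells of a type and less RNA per cell cannot be told apart.

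**Figure D1:**
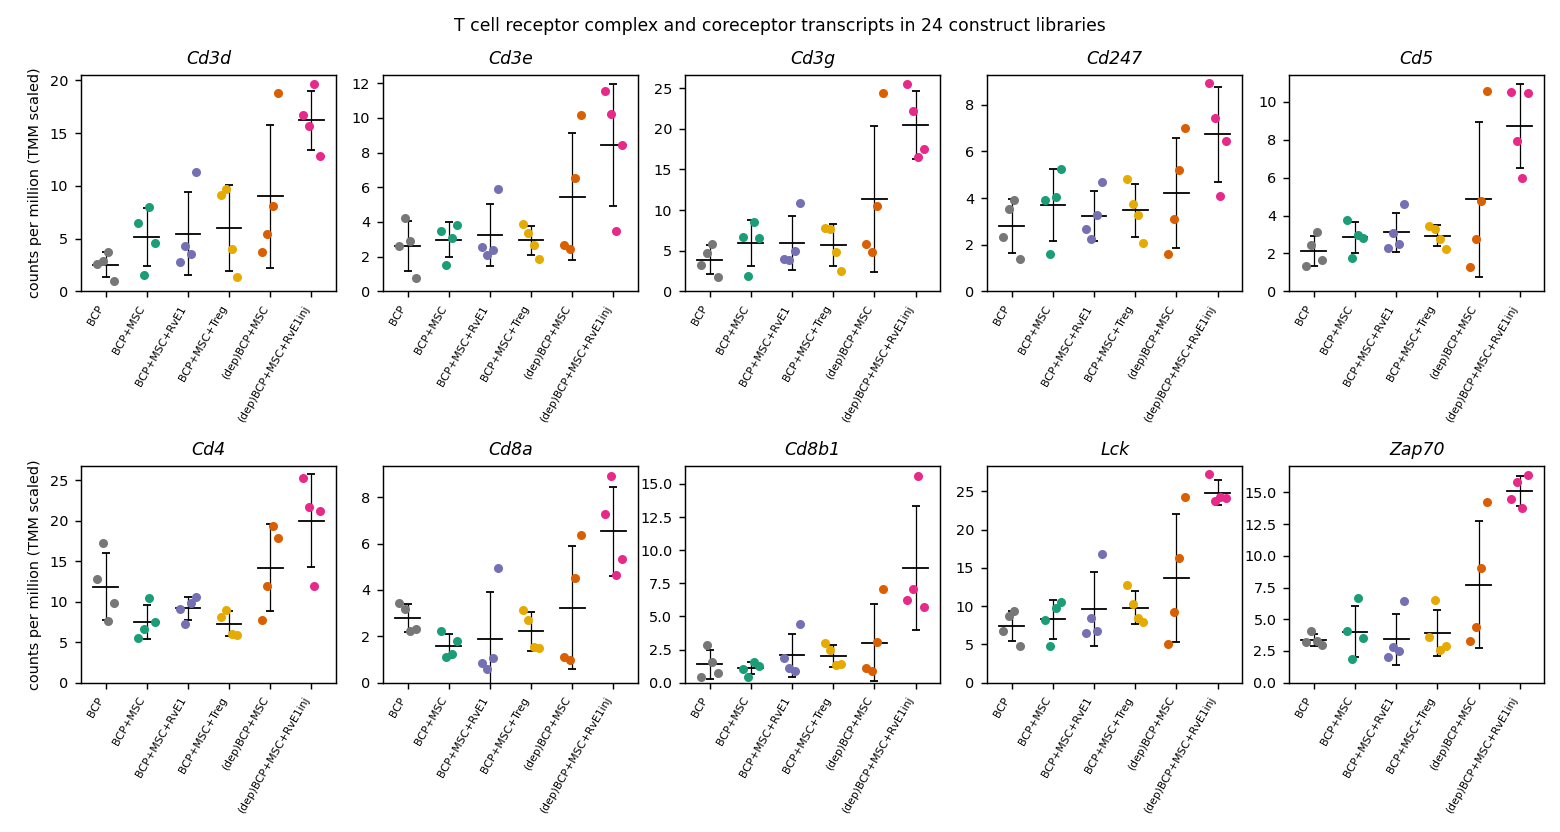
TMM-scaled CPM of each of the 10 genes in every library (points) by group, with the group mean and SD (n = 4); parts of SD bars below 0 are not drawn. The 4 points of (dep)BCP+MSC+RvE1inj lie above all of BCP+MSC for 8 of the genes, not for Cd3e and Cd247, and (dep)BCP+MSC holds a lower and a higher pair.

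The sum of the 10 genes shows how the libraries of a group fell. With granules alone it was 38.7, 53.7, 43.5 and 27.2 CPM, in BCP+MSC it was 45.4, 23.1, 56.2 and 47.6 CPM, and in BCP+MSC+Treg it was 59.6, 58.7, 37.3 and 29.5 CPM. In BCP+MSC+RvE1 it was 34.6, 35.9 and 37.7 CPM in libraries 1 to 3 and 80.4 CPM in library 4, in which all 10 genes exceeded their own median over the 24 libraries. The group (dep)BCP+MSC held a low pair at 33.3 and 45.9 CPM (libraries 1 and 2) and a high pair at 87.2 and 141 CPM (libraries 4 and 5, as the columns are numbered). The high pair had all 10 genes above their medians and the low pair 0 and 3. The 4 libraries of (dep)BCP+MSC+RvE1inj, at 154, 140, 120 and 128 CPM, each had all 10 genes above the median. The toxin group without RvE1 was therefore the most divided of the 6, with an SD of 48.4 CPM around a mean of 76.8, and the toxin group with RvE1 had an SD of 14.8 around 136 CPM (n = 4 each).

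**Figure D2:**
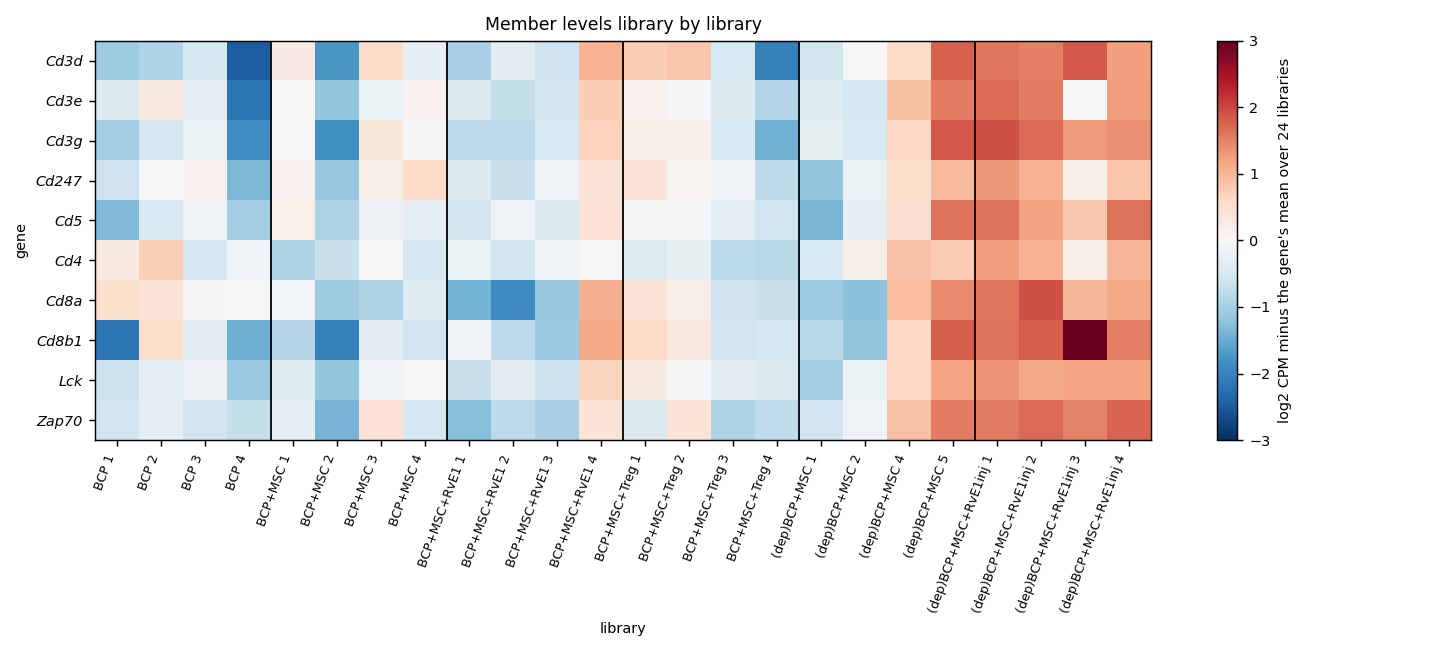
Log2 CPM of the 10 genes (one per line) in the 24 libraries (one per column, by group), as the difference from the mean of each gene over all libraries. The 4 columns of (dep)BCP+MSC+RvE1inj, columns 4 and 5 of (dep)BCP+MSC and column 4 of BCP+MSC+RvE1 are above the mean for most genes. So are columns 1 and 2 of BCP+MSC+Treg.

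The comparisons among the 4 groups without toxin asked whether seeding MSC, priming them with RvE1 or coculturing them with Treg changed the T cell transcripts of the implant. With edgeR's quasi-likelihood test on the counts, adjusted over all genes by Benjamini-Hochberg, 0 of the 10 genes passed an adjusted p of 0.05 in any of these 6 comparisons, and DESeq2 also called 0. The edgeR test called 0% of all 30564 genes in each of them and DESeq2 at most 0.33%, so these counts are no result about the 10 genes. The share called by DESeq2 was 0.0196%, 0.33% and 0.00982% for MSC, MSC with RvE1 and MSC with Treg against BCP, 0.00982% and 0% for the latter pair against BCP+MSC and 0.00654% between that pair. At an unadjusted p under 0.05, BCP+MSC against BCP gave 1 gene of 10 (5.06% of all genes passed that line) and BCP+MSC+Treg against BCP gave 2 (7.6% of all genes). BCP+MSC+RvE1 against BCP gave 0 (15.6% of all genes). Against BCP+MSC, BCP+MSC+RvE1 gave 0 (3.26% of all genes) and BCP+MSC+Treg gave 0 (2.72%), and BCP+MSC+Treg set against BCP+MSC+RvE1 gave 0 (2.37%). The log2 fold changes of the 10 genes ran from -0.22 to 0.94 in BCP+MSC+RvE1 against BCP+MSC, from -0.08 to 0.91 in BCP+MSC+Treg against BCP+MSC, and from -0.34 to 0.23 between these 2 treated groups, with the lowest unadjusted p at 0.154, 0.166 and 0.270 (edgeR).

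The coreceptors had negative log2 fold changes in BCP+MSC against BCP. Cd4 stood at 12.8, 17.3, 7.57 and 9.82 CPM in BCP, at 5.54, 6.58, 10.4 and 7.51 CPM in BCP+MSC and at 8.08, 9.00, 5.97 and 5.92 CPM in BCP+MSC+Treg. The groups overlapped, since library 3 of BCP was below the highest library of both. The log2 fold change was -0.66 in BCP+MSC against BCP (SE 0.30, edgeR adjusted p = 0.888, exact permutation p = 0.114) and -0.71 in BCP+MSC+Treg against BCP (SE 0.30, edgeR adjusted p = 0.614). Cd3d went the other way in BCP+MSC+Treg against BCP, with a log2 fold change of 1.25 (SE 0.59, edgeR adjusted p = 0.614). Its values were 2.57, 2.85, 3.73 and 0.944 CPM without MSC (BCP) and 9.09, 9.74, 3.98 and 1.32 CPM in BCP+MSC+Treg, where libraries 1 and 2 were high and library 4 fell within the range of BCP. Only Cd8a had groups that did not overlap in these 6 comparisons. It ran from 2.25 to 3.44 CPM in BCP, wholly above the 1.11 to 2.21 CPM of BCP+MSC, a separation that 1.81% of all genes showed in either direction, and its log2 fold change was -0.82 (SE 0.58, edgeR adjusted p = 0.904). That of Cd8b1 was -0.38 (SE 0.64, edgeR adjusted p = 0.969).

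The toxin was tested by (dep)BCP+MSC against BCP+MSC, which differ by their labels in the toxin alone. All 10 genes had a positive log2 fold change, from 0.21 for Cd247 to 1.49 for Cd8b1, with a median of 0.90 against -0.04 over all genes, and 47.2% of all genes had a positive one. Of the 10, 0 passed an adjusted p of 0.05 with edgeR, where 3.92% of all genes passed, and 3 (Cd4, Cd8b1 and Zap70) were higher at an unadjusted p under 0.05, as 9.66% of all genes were. DESeq2 called 1, Cd4 (adjusted p = 0.0144), where it called 9.35% of all genes. None of the 10 had groups without overlap, because libraries 1 and 2 of (dep)BCP+MSC lay within or near the range of BCP+MSC. Without library 5 of (dep)BCP+MSC the log2 fold change of Cd8b1 was 0.64, that of Zap70 0.48 and that of Lck 0.30, so 1 library carries much of these differences. The 3 genes became 8 without library 1 or without library 2 of that group, and 1 to 4 without any other single library. The share of all genes in these fits is not given here, so the changes in count are no result about the 10 genes alone. A fit with the replicate number as a block leaves out libraries 4 and 5 of (dep)BCP+MSC. There 1 of the 10 genes was higher, and the median was -0.13 against -0.14 over all genes.

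The injection of RvE1 in toxin-treated mice was tested by (dep)BCP+MSC+RvE1inj against (dep)BCP+MSC. Again all 10 genes had a positive log2 fold change, from 0.49 for Cd4 to 1.49 for Cd8b1, with a median of 0.84 against 0.00 over all genes, of which 50.1% were positive. With edgeR 0 of 10 passed an adjusted p of 0.05 (lowest adjusted p = 0.668), as did 0% of all genes, and DESeq2 also called 0 (0.0294% of all genes). At an unadjusted p under 0.05, 3 were higher (Cd8b1, Lck and Zap70), against 3.46% of all genes. These 3 became 0 without library 1 or without library 2 of (dep)BCP+MSC, 9 without its library 5, and 2 to 4 without any other single library. Here too the share of all genes in these fits is not given. The groups overlapped for all 10, since library 5 of (dep)BCP+MSC reached the range of (dep)BCP+MSC+RvE1inj. This comparison and the former share the libraries of (dep)BCP+MSC, and the values for each member stand side by side in the paragraphs on the single genes.

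A comparison of the group with toxin and RvE1 with BCP+MSC was added after the values had been seen, because the 10 genes lay highest there, so it is a test of a difference chosen for its size. The groups differ in the toxin and in the RvE1 injections, whose parts cannot be told apart here. All 10 log2 fold changes were positive, with a median of 1.64 against -0.04 over all genes (47.1% positive). With edgeR, 4 of 10 passed an adjusted p of 0.05, namely Cd4, Cd8b1, Lck and Zap70, where 0.258% of all genes passed and were higher. At an unadjusted p under 0.05, 9 were higher (6.54% of all genes), and for 8 of the 10 every library of (dep)BCP+MSC+RvE1inj exceeded every library of BCP+MSC, as in 2.77% of all genes. The remaining pair was Cd3e and Cd247. DESeq2 called 8, and 3.64% of all genes in either direction. The edgeR calls rest on the full set of libraries: leaving out any 1 library of either group left 0 to 2 of them, although 9 or 10 of the genes had an unadjusted p under 0.05 each time. The share of all genes in those fits is not given. With a covariate of sex-linked genes, 0 of the 10 passed an adjusted p of 0.05 (1.17% of all genes). With that covariate 9 had an unadjusted p under 0.05, as did 4843 of 30564 genes in either direction. Without the 7 shallow libraries, 0 passed the adjusted line (0.0434% of all genes) and 10 the unadjusted one (2072 of 29924 genes).

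**Figure D3:**
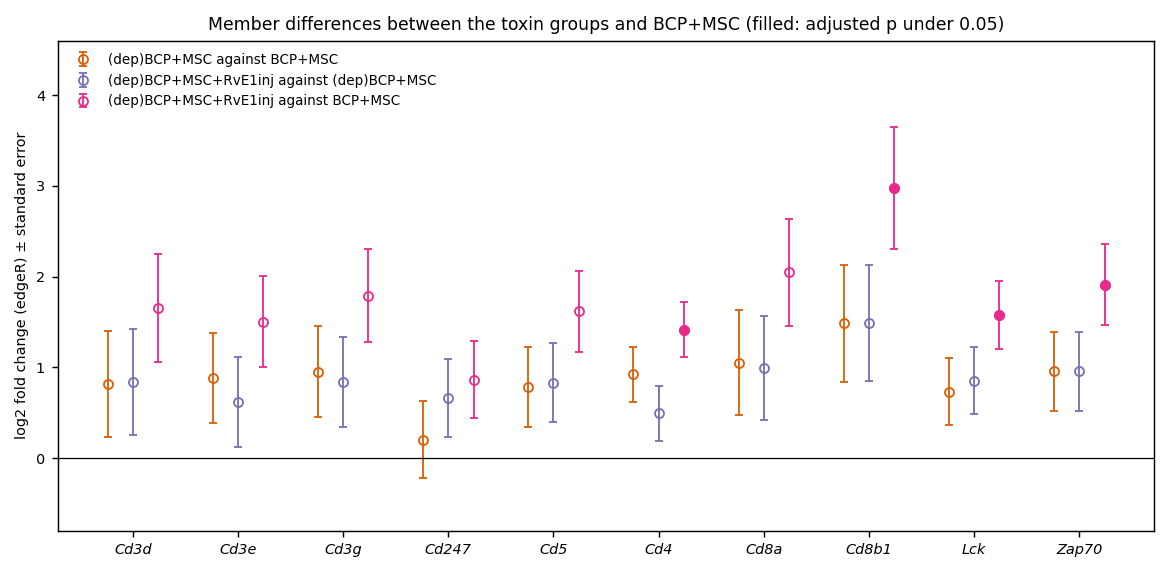
Log2 fold change of each of the 10 genes with its SE (edgeR, n = 4 per group) in the comparisons of the 3 MSC groups that received no priming or Treg: toxin against none, toxin with RvE1 injections against toxin alone, and toxin with RvE1 injections against none. Filled points passed an adjusted p of 0.05. All values are above 0, and those of the last comparison are the sums of the other ones, with the highest at 2.98 for Cd8b1.

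The CD3 chains are the parts of the receptor complex that all T cells share. Cd3g stood at 6.74, 1.88, 8.54 and 6.50 CPM in BCP+MSC, at 5.78, 4.89, 10.4 and 24.4 CPM in (dep)BCP+MSC and at 25.5, 22.2, 16.6 and 17.5 CPM in (dep)BCP+MSC+RvE1inj. Every library of the last group was above every library of BCP+MSC, whereas library 5 of (dep)BCP+MSC was as high as the last group. Its log2 fold change was 0.95 for the toxin (SE 0.50, edgeR adjusted p = 0.290), 0.84 for RvE1 in toxin-treated mice, and 1.79 for both against BCP+MSC (SE 0.51, edgeR adjusted p = 0.107).

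Cd3d followed the same order. It stood at 6.44, 1.59, 8.04 and 4.54 CPM in BCP+MSC, at 3.69, 5.42, 8.14 and 18.8 CPM in (dep)BCP+MSC and at 16.8, 15.6, 19.6 and 12.8 CPM in (dep)BCP+MSC+RvE1inj. The last group did not overlap with BCP+MSC, and its log2 fold change against it was 1.65 (SE 0.60, edgeR adjusted p = 0.215). The toxin alone gave 0.81 (SE 0.59, edgeR adjusted p = 0.458) and RvE1 in toxin-treated mice 0.84.

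Cd3e was the CD3 chain with the lowest level per kilobase and the smallest separation. It stood at 3.49, 1.54, 3.06 and 3.82 CPM in BCP+MSC, at 2.69, 2.43, 6.55 and 10.2 CPM in (dep)BCP+MSC and at 11.6, 10.2, 3.51 and 8.41 CPM in (dep)BCP+MSC+RvE1inj. Library 3 of the last group, at 47 counts, fell inside the range of BCP+MSC while the other 3 were above it. Cd3e gave a log2 fold change of 1.51 against BCP+MSC (SE 0.50, edgeR adjusted p = 0.176, exact permutation p = 0.0571), 0.88 for the toxin (SE 0.50, edgeR adjusted p = 0.323) and 0.62 for RvE1 in toxin-treated mice. Without library 3 the value against BCP+MSC was 1.76, so that the library whose Cd3d to Cd3e ratio stood apart lowered it.

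Cd247, the zeta chain, had the smallest differences from BCP+MSC of the 10 genes in both toxin groups. Its mean was 3.70 ± 1.52 CPM in BCP+MSC, 4.22 ± 2.36 CPM in (dep)BCP+MSC and 6.72 ± 2.02 CPM in (dep)BCP+MSC+RvE1inj (SD, n = 4 each), and the groups overlapped. The log2 fold change was 0.21 for the toxin (SE 0.43, edgeR adjusted p = 0.842), 0.66 for RvE1 in toxin-treated mice and 0.87 against BCP+MSC (SE 0.43, edgeR adjusted p = 0.375). It is the only member with an unadjusted p above 0.05 in that last comparison. How reads of Pou2f1 on the opposite strand enter these counts was not tested.

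Cd5, a surface receptor that restrains receptor signalling, stood at 3.79, 1.77, 3.00 and 2.84 CPM in BCP+MSC, at 1.30, 2.75, 4.77 and 10.6 CPM in (dep)BCP+MSC and at 10.5, 7.93, 5.97 and 10.5 CPM in (dep)BCP+MSC+RvE1inj. The last group was above BCP+MSC in 4 of 4 libraries, and (dep)BCP+MSC spread from below BCP+MSC to just above the last group. The log2 fold changes were 0.79 for the toxin (SE 0.44, edgeR adjusted p = 0.317), 0.83 for RvE1 in toxin-treated mice and 1.62 against BCP+MSC (SE 0.44, edgeR adjusted p = 0.0894).

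The kinases had the least relative spread in (dep)BCP+MSC+RvE1inj. Zap70 stood at 4.09, 1.83, 6.64 and 3.49 CPM in BCP+MSC, at 3.29, 4.38, 9.04 and 14.2 CPM in (dep)BCP+MSC and at 14.5, 15.8, 13.7 and 16.3 CPM in (dep)BCP+MSC+RvE1inj. The last group had an SD of 1.20 CPM around 15.1 CPM and only library 5 of (dep)BCP+MSC entered its range. Zap70 was the member with the lowest p in the test of any difference among the 6 groups. It rose in (dep)BCP+MSC+RvE1inj against BCP+MSC by a log2 fold change of 1.91 (SE 0.44, edgeR adjusted p = 0.0386), and gave 0.96 for the toxin (SE 0.43, edgeR adjusted p = 0.214) and 0.96 for RvE1 in toxin-treated mice (SE 0.43, edgeR adjusted p = 0.668).

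Lck, the kinase carried by the coreceptors, stood at 8.13, 4.75, 9.72 and 10.6 CPM in BCP+MSC, at 5.08, 9.18, 16.2 and 24.2 CPM in (dep)BCP+MSC and at 27.2, 23.7, 24.3 and 24.2 CPM in (dep)BCP+MSC+RvE1inj. The last group lay wholly above BCP+MSC and met (dep)BCP+MSC only at library 5. Lck rose against BCP+MSC by a log2 fold change of 1.58 (SE 0.37, edgeR adjusted p = 0.0444). The toxin gave 0.73 (SE 0.37, edgeR adjusted p = 0.264) and RvE1 in toxin-treated mice 0.85 (SE 0.37, edgeR adjusted p = 0.668).

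Among the coreceptors, Cd4 had the smallest error. It stood at 5.54, 6.58, 10.4 and 7.51 CPM in BCP+MSC, at 7.68, 11.9, 19.3 and 17.8 CPM in (dep)BCP+MSC and at 25.3, 21.6, 11.9 and 21.2 CPM in (dep)BCP+MSC+RvE1inj. Its highest BCP+MSC library was below the lowest of the last group, and library 3 of that group was the low one, inside the range of (dep)BCP+MSC. Cd4 rose against BCP+MSC by a log2 fold change of 1.42 (SE 0.31, edgeR adjusted p = 0.0278), with 0.92 for the toxin (SE 0.30, edgeR adjusted p = 0.0850) and 0.49 for RvE1 in toxin-treated mice. BCP, at 11.9 ± 4.19 CPM (SD, n = 4), lay between these groups, so that Cd4 in the toxin groups was not as far from BCP as from BCP+MSC.

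The CD8 chains had larger log2 fold changes than Cd4 and larger errors. Cd8a stood at 2.21, 1.11, 1.22 and 1.78 CPM in BCP+MSC, at 1.10, 0.988, 4.50 and 6.36 CPM in (dep)BCP+MSC and at 7.26, 8.90, 4.63 and 5.33 CPM in (dep)BCP+MSC+RvE1inj. Libraries 1 and 2 of (dep)BCP+MSC were below all of BCP+MSC and libraries 4 and 5 above it. Its log2 fold change was 2.05 against BCP+MSC (SE 0.59, edgeR adjusted p = 0.109), 1.05 for the toxin (SE 0.58, edgeR adjusted p = 0.307) and 1.00 for RvE1 in toxin-treated mice.

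Cd8b1, the beta chain that marks cytotoxic T cells more strictly than the alpha chain, stood at 1.06, 0.458, 1.56 and 1.29 CPM in BCP+MSC, at 1.10, 0.867, 3.06 and 7.10 CPM in (dep)BCP+MSC and at 6.22, 7.05, 15.6 and 5.69 CPM in (dep)BCP+MSC+RvE1inj. The 15.6 CPM of library 3 was the highest value of all 24, and the other 3 libraries of its group were still above all of BCP+MSC. Cd8b1 rose against BCP+MSC by a log2 fold change of 2.98 (SE 0.68, edgeR adjusted p = 0.0355), which was 2.53 without library 3 (adjusted p = 0.136). The toxin gave 1.49 (SE 0.64, edgeR adjusted p = 0.191) and RvE1 in toxin-treated mice 1.49 (SE 0.64, edgeR adjusted p = 0.668).

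In the test of any difference among the 6 groups, 6 of the 10 genes passed an adjusted p of 0.05 (edgeR), where 4.75% of all genes passed. These were Zap70 (edgeR adjusted p = 0.00358), Cd4 (0.0108), Lck (0.0161), Cd3g (0.0194), Cd8b1 (0.0212) and Cd5 (0.0249). The other 4 were Cd3d (0.0723), Cd3e (0.108), Cd8a (0.132) and Cd247 (0.292). Without the 7 shallow libraries, 1 of the 10 passed, and 0.849% of all genes. Whether RvE1 had a different effect by injection in toxin-treated mice than by priming of MSC in the others was tested as the difference of the 2 differences. Here 0 of 10 passed with edgeR (0% of all genes) or DESeq2 (0.00654%), and 0 had an unadjusted p under 0.05 (4.45% of all genes). The latter count became 3 without library 4 of BCP+MSC+RvE1 or without library 5 of (dep)BCP+MSC, fits whose share of all genes is not given. The values ran from 0.20 to 1.18, all higher with the injection, with Zap70 at 1.18 (SE 0.61, edgeR adjusted p = 1.00). Route, dose and host differ together in this contrast.

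For the ratio of Cd4 to Cd8a, both per kilobase of exon, the groups overlapped in each of the 9 comparisons made. Its geometric mean was 3.68 in BCP, 4.24 in BCP+MSC, 6.20 in BCP+MSC+RvE1, 3.03 in BCP+MSC+Treg, 5.00 in (dep)BCP+MSC and 2.74 in (dep)BCP+MSC+RvE1inj. By library it was 6.14, 10.5, 3.84 and 2.52 in (dep)BCP+MSC and 3.13, 2.19, 2.30 and 3.57 in (dep)BCP+MSC+RvE1inj. The low pair of T cell libraries in (dep)BCP+MSC had the higher ratios, and library 4 of BCP+MSC+RvE1, the richest in T cell transcripts of its group, had the ratio 1.91 where the other 3 had 8.13 to 10.3. The largest separation by the test was between the toxin groups, with a log2 difference of -0.87 for (dep)BCP+MSC+RvE1inj (SE 0.48, two-sided exact permutation p = 0.114, adjusted p = 0.457 over 36 ratio tests). With 4 against 4 libraries the smallest p this test can give is 0.0286, so a single difference could not pass the adjustment over 36 tests by itself.

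**Figure D4:**
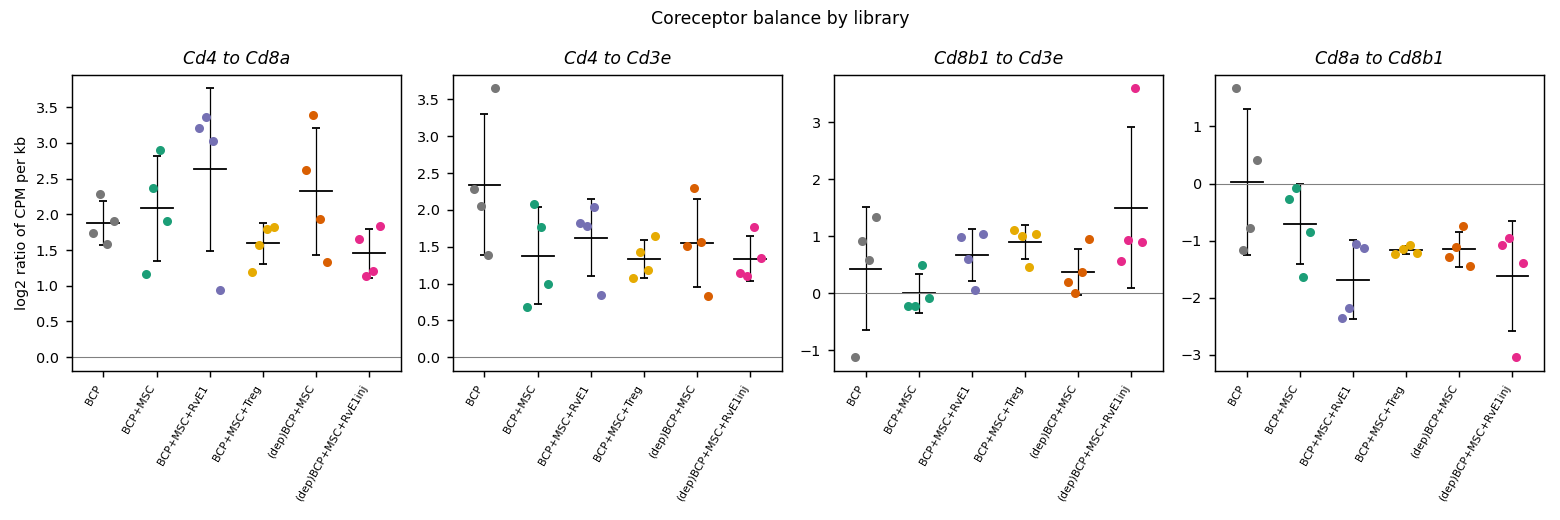
Log2 ratios between members, each per kilobase of exon, in every library (points) by group, with group mean and SD (n = 4). The groups overlap for Cd4 to Cd8a, and library 3 of (dep)BCP+MSC+RvE1inj is far above its group for Cd8b1 to Cd3e.

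The coreceptors were also set against Cd3e, as coreceptor per receptor complex. The ratio of Cd4 to Cd3e had group geometric means of 2.52 to 5.07, with the highest in BCP, and no p under 0.0857 (exact permutation). The ratio of Cd8b1 to Cd3e was 0.858, 0.862, 1.41 and 0.949 in BCP+MSC and 1.48, 1.90, 12.1 and 1.86 in (dep)BCP+MSC+RvE1inj. These groups, with geometric means of 0.998 and 2.83, did not overlap (exact permutation p = 0.0286, adjusted p = 0.457), and the ratio of 12.1 belongs to the library that stood apart, without which the log2 difference between these groups was 0.80. BCP+MSC+Treg also had a higher ratio than BCP+MSC, by 0.91 on the log2 scale (SE 0.23, exact permutation p = 0.0571, adjusted p = 0.457), with values of 2.16, 2.01, 1.37 and 2.05. Its lowest value was below the 1.41 of BCP+MSC, so these groups overlapped. BCP+MSC+RvE1 against BCP+MSC gave 0.67 (SE 0.28, exact permutation p = 0.0571, adjusted p = 0.457), also with overlap. None of the 36 tests, 4 ratios in 9 comparisons, passed the adjustment. With a smallest possible p of 0.0286, a single ratio could not pass it by itself, however large its difference.

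The ratio of Cd8a to Cd8b1 sets the alpha chain, which also pairs with itself, against the beta chain, and its geometric mean was 1.02 in BCP and 0.614 or less in the other 5 groups. It was steady in BCP+MSC+Treg, at log2 values from -1.23 to -1.07, and spread in BCP, at ratios of 3.19, 0.449, 0.581 and 1.32. The high values of BCP came from libraries 1 and 4, in which Cd8b1 had 7 and 11 counts. Their exon length slopes, the change in relative log2 CPM per doubling of exon length, were 0.19 and 0.34. Over the 24 libraries this slope ran from -0.22 to 0.35, and a positive slope favours long genes. Cd8a has 3637 exonic bases and Cd8b1 1483. The part of exon length in the ratios was not tested. Between the groups no exact permutation p was under 0.0857.

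The constant regions of the receptor chains themselves give a second reading of T cell transcripts that did not enter the choice of the 10 genes. Trac, the alpha chain, stood at 5.59, 2.70, 7.27 and 4.99 CPM in BCP+MSC, at 3.99, 7.08, 11.4 and 20.8 CPM in (dep)BCP+MSC and at 19.9, 18.3, 13.2 and 20.1 CPM in (dep)BCP+MSC+RvE1inj. Its libraries fell as those of the CD3 chains did, the last group above BCP+MSC throughout. Trac gave a log2 fold change of 1.08 for the toxin (SE 0.45, edgeR adjusted p = 0.176), 0.72 for RvE1 in toxin-treated mice and 1.80 against BCP+MSC (SE 0.46, edgeR adjusted p = 0.0666).

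The beta chain transcripts Trbc2 and Trbc1 gave smaller values than Trac for the toxin, a difference that was not tested. Trbc2 stood at 5.67, 2.09, 10.1 and 5.38 CPM in BCP+MSC, at 3.69, 4.38, 7.93 and 15.4 CPM in (dep)BCP+MSC and at 18.7, 16.6, 29.3 and 16.6 CPM in (dep)BCP+MSC+RvE1inj. The last group overlapped with neither of the others. Its log2 fold change was 0.45 for the toxin (SE 0.51, edgeR adjusted p = 0.672), 1.36 for RvE1 in toxin-treated mice (SE 0.52, edgeR adjusted p = 0.668) and 1.81 against BCP+MSC (SE 0.52, edgeR adjusted p = 0.114). Trbc1 gave -0.08 for the toxin (SE 0.51, edgeR adjusted p = 0.961), 1.27 for RvE1 in toxin-treated mice (SE 0.52, edgeR adjusted p = 0.668) and 1.19 against BCP+MSC (SE 0.52, edgeR adjusted p = 0.309). The copies Trbc1 and Trbc2 are nearly identical, and the way their reads were divided is uncertain.

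Gamma delta T cells were represented by few counts. Trdc, the delta chain, stood at 2.21, 0.519, 0.728 and 1.66 CPM in BCP+MSC, at 0.798, 0.169, 0.294 and 0.672 CPM in (dep)BCP+MSC and at 1.26, 1.18, 0.522 and 0.948 CPM in (dep)BCP+MSC+RvE1inj. Its log2 fold change with the toxin was negative, at -1.47 (SE 0.58, edgeR adjusted p = 0.149) with overlapping groups. Against BCP+MSC the last group gave -0.36 (SE 0.55, edgeR adjusted p = 0.824). The gamma chain genes Tcrg-C1, Tcrg-C2 and Tcrg-C4 did not exceed 1.52 CPM in any library, and Tcrg-C3 had 0 to 4 counts. Of the 8 constant region genes 0 passed an adjusted p of 0.05 in these comparisons (edgeR). At an unadjusted p under 0.05, 1 was higher (9.66% of all genes) and 1 lower with the toxin, 2 were higher with RvE1 in toxin-treated mice (3.46% of all genes), and 3 were higher in (dep)BCP+MSC+RvE1inj against BCP+MSC (6.54% of all genes).

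**Figure D5:**
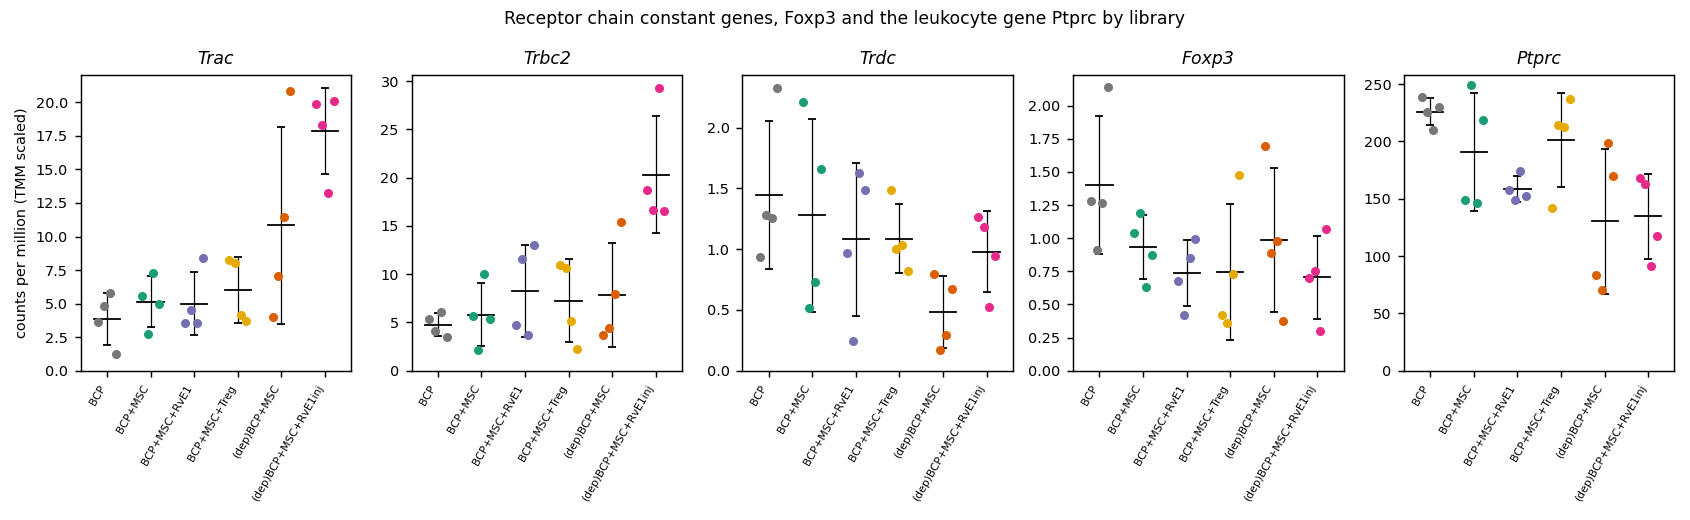
TMM-scaled CPM of the receptor chain genes Trac, Trbc2 and Trdc, of Foxp3 and of Ptprc in every library (points) by group, with group mean and SD (n = 4); parts of SD bars below 0 are not drawn. Trac and Trbc2 are high in all 4 libraries of (dep)BCP+MSC+RvE1inj, and Trdc stays under 2.33 CPM.

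The proteins that work downstream of the receptor or beside it were taken as a list of 48 genes. In (dep)BCP+MSC against BCP+MSC, 3 of them rose and 3 fell at an adjusted p of 0.05 (edgeR; 3.92% of all genes in either direction), and the median log2 fold change was 0.23. Those that rose included Cd6, a T cell adhesion receptor related to Cd5, at 1.37 (SE 0.33, adjusted p = 0.0187), Prkcq, the protein kinase C that links the receptor to NF-kB, at 2.06 (SE 0.44, adjusted p = 0.00813), and Themis, an adaptor needed in thymocyte selection, at 2.61 (SE 0.69, adjusted p = 0.0331). Those that fell included the phosphatase Ptpn6 at -0.91 (adjusted p = 0.0309) and Csk, the kinase that inhibits Lck, at -0.82 (adjusted p = 0.0458). Prkcq is also made by skeletal muscle. The 12 skeletal muscle genes summed to 23533 to 37459 CPM in (dep)BCP+MSC and to 339 to 26127 CPM in BCP+MSC, and their part in the Prkcq value was not tested.

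In (dep)BCP+MSC+RvE1inj against BCP+MSC, 4 of the 48 rose (0.258% of all genes) and 0 fell, with a median of 0.61, and 20 were higher (6.54% of all genes) and 3 lower at an unadjusted p under 0.05. Cd6 rose from 2.50 ± 0.507 to 11.0 ± 1.76 CPM (SD, n = 4 each), which is 2.14 on the log2 scale (SE 0.34, edgeR adjusted p = 0.00377). Cd69, an early activation marker of lymphocytes, rose by 1.81 (SE 0.34, adjusted p = 0.0121) and Ubash3a, a phosphatase family member that dampens receptor signalling, by 2.34 (SE 0.49, adjusted p = 0.0199). In (dep)BCP+MSC+RvE1inj against (dep)BCP+MSC 0 of the 48 passed (edgeR), 7 were higher (3.46% of all genes) and 0 lower at an unadjusted p under 0.05, with a median of 0.33. Among the 6 groups, 14 of the 48 passed, and 4.75% of all genes.

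Of 15 transcription factors of the T lineage, 2 rose with the toxin (3.92% of all genes passed in either direction) and 3 rose in (dep)BCP+MSC+RvE1inj against BCP+MSC (0.258% of all genes rose), with 0 that fell (edgeR, adjusted p of 0.05). Those that rose included Bcl11b and Satb1. Bcl11b, which fixes T cell identity, rose by a log2 fold change of 1.85 in the latter (SE 0.40, adjusted p = 0.0248). Satb1, a chromatin organiser, rose by 1.46 with the toxin (SE 0.32, adjusted p = 0.00874) and by 1.38 in the latter (SE 0.32, adjusted p = 0.0357).

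Other leukocyte genes were measured beside the 10. In (dep)BCP+MSC against BCP+MSC, where all 10 were higher, 12 of 12 pan-leukocyte genes, 11 of 13 natural killer cell genes, 10 of 10 B cell genes, 10 of 11 dendritic cell genes and 10 of 12 macrophage genes had negative log2 fold changes, where 47.2% of all genes had positive ones. Their medians were -0.70, -0.91, -0.89, -0.83 and -0.19, and 1, 2, 0, 3 and 0 of them fell at an adjusted p of 0.05 (edgeR), where 1 dendritic cell gene and 1 macrophage gene rose and 3.92% of all genes passed in either direction. Ptprc, the CD45 of all leukocytes, had a mean of 191 ± 51.5 CPM in BCP+MSC, 130 ± 63.2 CPM in (dep)BCP+MSC and 135 ± 36.9 CPM in (dep)BCP+MSC+RvE1inj (SD, n = 4 each). The low pair of (dep)BCP+MSC for the 10 genes, libraries 1 and 2, also had the lowest Ptprc of that group, 83.5 CPM or less. Its log2 fold change was -0.55 for the toxin (SE 0.28, edgeR adjusted p = 0.262) and -0.50 in (dep)BCP+MSC+RvE1inj against BCP+MSC (SE 0.27, edgeR adjusted p = 0.426), opposite in sign to all 10 genes.

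With RvE1 in toxin-treated mice the natural killer cell and B cell lists went the same way as the 10 genes. All 13 natural killer cell genes and all 10 B cell genes had positive log2 fold changes, with medians of 1.10 and 1.86, and 6 and 7 of them an unadjusted p under 0.05, as 3.46% of all genes were higher at that line, but 0 passed an adjusted p of 0.05 (edgeR). Against BCP+MSC their medians were -0.06 and 0.85, where that of the 10 genes was 1.64. The natural killer cell list was split there, with 6 genes higher and 7 lower. Nkg7 was at 1.41 (SE 0.57, edgeR adjusted p = 0.271) and Ncr1 at -1.27 (SE 0.55, edgeR adjusted p = 0.300). Eomes is on this list and also among the T lineage transcription factors, so the list is not separate from T cells. The summed natural killer cell genes ran from 10.8 to 85.7 CPM in (dep)BCP+MSC and from 59.8 to 118 CPM in (dep)BCP+MSC+RvE1inj, beside 23.1 to 71.2 CPM in BCP+MSC. The summed pan-leukocyte genes ran from 1970 to 4646 CPM in (dep)BCP+MSC, from 3164 to 4434 CPM in (dep)BCP+MSC+RvE1inj and from 4496 to 5791 CPM in BCP+MSC. When the libraries were scaled on these pan-leukocyte genes, the median of all genes in (dep)BCP+MSC against BCP+MSC went from -0.04 to 0.71, and 8 of the 10 genes passed an adjusted p of 0.05 there, as did 19.2% of all genes. The part of other cell types in the differences of the 10 genes was not tested.

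Lymph node and thymus genes were looked at because such tissue near a dorsal implant would carry T cell transcripts. Of 12 genes of naive cells and lymphoid tissue 11 could be tested, with medians of -0.53 with the toxin, 0.74 with RvE1 in toxin-treated mice and 0.21 against BCP+MSC, and 0 rose and 1 fell at an adjusted p of 0.05 with the toxin (edgeR; 3.92% of all genes passed in either direction). The gene that fell was Ccr7, the receptor that guides naive T cells and dendritic cells to lymph nodes, at -2.04 (SE 0.36, adjusted p = 0.0019). Glycam1, a product of lymph node vessels, had a mean of 0.315 ± 0.162 CPM in BCP+MSC and 1.73 ± 2.89 CPM in (dep)BCP+MSC (SD, n = 4 each), with a log2 fold change of 2.47 (SE 1.15, edgeR adjusted p = 0.229). Of 7 thymocyte genes 6 could be tested, with medians of 0.05, -0.05 and 0.19 in the same order.

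Within groups, the libraries rich in Cd3e were rich in the other members too. After the group means were subtracted, Pearson's r with the log2 CPM of Cd3e over the 24 libraries was 0.90 for Cd247, 0.86 for Cd3g, 0.80 for Lck, 0.76 for Cd8a, 0.74 for Cd5, 0.73 for Cd3d, 0.68 for Zap70, 0.65 for Cd4 and 0.61 for Cd8b1, where the median over 14793 genes with a mean of at least 1 CPM was 0.16. The r of Cd8b1 was 0.82 without library 4 of BCP and library 3 of (dep)BCP+MSC+RvE1inj, the libraries farthest from the median of Cd3e. The 10 other genes most like Cd3e were Trac (0.88), H2-Aa (0.88), Sept1 (0.87), H2-Eb1 (0.86), Dnaaf3 (0.86), Cd74 (0.85), Ruvbl2 (0.85), Wdsub1 (0.84), Lcmt2 (0.84) and Gipc1 (0.83). H2-Aa, H2-Eb1 and Cd74 belong to antigen presentation on MHC class II. The r with the beta chains was 0.56 for Trbc1 and 0.53 for Trbc2, that with Ptprc was 0.36 and that with Trdc 0.33. These values describe libraries that share depth and RNA quality, and no test was made of them.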

How the data were processed

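The authors deposited 1 table of raw counts per gene for 24 libraries, made, according to the study's methods and the file header, from TruSeq Stranded mRNA libraries by HISAT2 (2.0.5) alignment to mouse GRCm38 and featureCounts (1.5.2) over exons, in paired mode and with no option for strand, shared or multiple matches in the logged command. The submitters' processing notes also name DESeq2 (1.42.0), Picard and STAR. Reads of overlapping and antisense genes, and of near-identical copies, can therefore be misassigned. Symbols were matched by gene identifier for 50376 of 51138 genes. The column numbers of (dep)BCP+MSC (1, 2, 4 and 5) do not match the labelled replicates 1 to 4, so these columns count as replicates without a number.

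Genes with at least 10 counts in total (30564 of 39183 with any count) were tested with edgeR (4.0.16, R 4.3.3), with TMM factors, a robust quasi-likelihood fit of all 6 groups and Benjamini-Hochberg adjustment over all genes at 0.05, the method behind every adjusted p for a gene except where DESeq2 is named. CPM are TMM-scaled, and log2 CPM carry a prior count of 2. Single values were compared by two-sided exact permutation over 70 arrangements, and ratio p-values were adjusted over 36 tests. The fit was tested on simulated counts, but the outcome is not reported here and no result rests on it. SD are over the 4 libraries of a group, SE of log2 fold changes come from the fit of all 6 groups and SE of ratios from the libraries compared. Libraries are labelled as biological replicates, which by the study's account are different animals. DESeq2 (1.42.0), RLE scaling, scaling on 12 pan-leukocyte genes, other filters, prior counts and covariates, the replicate block and leaving out libraries were the alternatives. Promoter windows came from RefSeq (GRCm38.p6), the build of the counts. Genes were named by a rule: all 10 members, the constant region genes, Foxp3, Ptprc, up to 3 genes per list, direction and comparison by smallest p, and the 10 genes most like Cd3e. Some genes that the rule names are not reported here. The 10 genes and all lists were chosen with earlier results of these data known. Library 3 of (dep)BCP+MSC+RvE1inj and the 7 shallow libraries were kept in the main results.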

Additional observations from a re-analysis of the deposited data

Results flagged for a closer look

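Of 84 sets of 4 libraries examined (the 10 genes and 4 ratios in 6 groups), 4 held a library far from the other 3 by Dixon's criterion, which chance gives in about 1 of 20 sets. Lck in library 1 of (dep)BCP+MSC+RvE1inj stood at 27.2 CPM, above the other 3 of its group. The log2 ratio of Cd4 to Cd8a in library 4 of BCP+MSC+RvE1 was 0.94, below the others of its group, and this library also had the highest sum of the 10 genes in its group. The log2 ratio of Cd8b1 to Cd3e was 0.46 in library 3 of BCP+MSC+Treg, below its group. The same ratio was 3.60 in library 3 of (dep)BCP+MSC+RvE1inj, above its group, from 209 counts of Cd8b1 and 47 of Cd3e. That library also had the highest ratio of Cd3d to Cd3e counts of all 24. Its exon length slope was -0.20, and Cd3e (4080 exonic bases) is longer than Cd3d (1815) and Cd8b1 (1483).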

How the results depend on the processing

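All 10 genes kept positive log2 fold changes in (dep)BCP+MSC+RvE1inj against (dep)BCP+MSC and against BCP+MSC under every alternative run, leaving out any 1 library included. In (dep)BCP+MSC against BCP+MSC the count of 0 genes past an adjusted p of 0.05 became 1 with the filterByExpr filter (7.91% of all genes), with DESeq2 (9.35%), with a library size covariate (3.65%) or without the 7 shallow libraries (2.11%), 2 with the exon length slope as a covariate (8.28%) and 8 with pan-leukocyte scaling (19.2%). In (dep)BCP+MSC+RvE1inj against BCP+MSC the 4 genes became 8 with DESeq2 (3.64% of all genes), 7 with pan-leukocyte scaling (0.553%), 1 with these 2 groups alone (0.153%), 0 with a covariate of sex-linked genes (1.17%), 0 without the 7 libraries (0.0434%) and 0 to 2 without single libraries: 0 without library 1, 2 or 4 of BCP+MSC or library 2 or 4 of (dep)BCP+MSC+RvE1inj, 1 without its library 1 or 3, and 2 without library 3 of BCP+MSC. Among the 6 groups the 6 genes became 10 with pan-leukocyte scaling (18.6% of all genes) and 1 without the 7 libraries (0.849%). For the fits without single libraries the share of all genes is not given. The causes were not tested. Replicate numbers did not pair the samples (median correlation of deviations 0.00449 for same-numbered and -0.0408 for other libraries). A replicate block must omit libraries 4 and 5 of (dep)BCP+MSC, the high pair, and then reversed the toxin's log2 fold changes of 9 genes: Cd3d -0.14, Cd3e -0.31, Cd3g -0.071, Cd247 -0.59, Cd8a -0.61, Cd8b1 -0.036, Lck -0.12, Zap70 -0.022 and Cd5 -0.44. The median over all genes in that fit was also negative, at -0.14. For RvE1 in toxin-treated mice the 3 genes with an unadjusted p under 0.05 became 10 with the block (4228 of 30092 genes, either direction). The count became 7 with the library size covariate (2270 of 30564 genes). It became 0 with the sex-linked covariate (1711 of 30564), with the exon length slope (1868 of 30564) or without the 7 libraries (911 of 29924). For the difference between the RvE1 effects 0 of the 10 genes had an unadjusted p under 0.05 in the main fit. With the block 7 had one (2883 of 30092 genes, either direction), and with the library size covariate 2 (1371 of 30564). With the sex-linked covariate 1 had one (1464 of 30564), as with the exon length slope (1704 of 30564). With the block the log2 ratio of Cd4 to Cd8a gave 1.24 for the toxin and -1.62 for RvE1 in toxin-treated mice, Cd4 to Cd3e gave -0.78 for RvE1 in toxin-treated mice and Cd8a to Cd8b1 gave -1.03 for the toxin. Cd247 gave -0.15 to 0.45 for the toxin without single libraries. With the exon length slope as a covariate, 0 of the 10 genes were higher in BCP+MSC+RvE1 against BCP, where 8 were without it. Over all genes, DESeq2 called 2859 with the toxin, where edgeR called 1198. The shallow libraries, with 8482701 to 18077487 counts, left members at as few as 7 counts, which limits the ratios with Cd8b1 and Cd3e.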
